A study of Mus musculus with 6 samples.

Results

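The 10 genes described here are the CC and CXC chemokine ligands Ccl2, Ccl3, Ccl4, Ccl6, Ccl7, Ccl9, Ccl12, Cxcl2, Cxcl10 and Cxcl16, chosen by name from the 55487 genes in the count files. The choice was made with earlier results of these data known. The 10 genes were measured by bulk RNA-seq in 6 cultures of primary cortical microglia, the resident macrophages of the brain. The cells came from pups at postnatal days 1 to 3, of the line CAG::CreERT2 with Nr1d1 fl/fl, in which both copies of Nr1d1, the gene for the clock repressor REV-ERBα, are flanked by loxP sites. The 3 Cre- cultures were controls without the recombinase and the 3 Cre+ cultures carried it. All 6 received 4-hydroxytamoxifen (4-OHT) at 1.5 μM for 2 days according to the labels. The study's account of this experiment also gives 2 days, whereas its methods give a shorter exposure for this line. The floxed alleles and the drug were therefore shared, and the groups differed in Cre. CAG is a broadly active promoter, so Cre is not restricted to microglia by the transgene. The labels do not say whether the cultures of a group came from separate animals, and p-values then measure only the spread between these cultures, which may be technical.

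Chemokines are small secreted proteins that bind G protein-coupled receptors and steer the movement of leukocytes along a gradient. The CC and CXC families are named for the spacing of their first cysteines. In the brain, microglia are a main source of several of them, among them CCL3, CCL4 and CCL2, the last of which attracts monocytes through CCR2. CCL6 and CCL9 are CC ligands of rodents that act on CCR1. CXCL2 attracts neutrophils through CXCR2, CXCL10 is an interferon-induced ligand of CXCR3, and CXCL16 is made as a membrane-bound protein that binds CXCR6.

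Of the 10 ligands, 7 are CC and 3 are CXC genes, and 8 lie on chromosome 11 and 2 on chromosome 5 of GRCm38. On chromosome 11 they fall into separate groups. Ccl2 (82035571 to 82037453), Ccl7 (82045712 to 82047525) and Ccl12 (82101845 to 82103400) lie on the plus strand. Some 1.47 Mb further on are Ccl9 (83572919 to 83578636), Ccl6 (83587882 to 83593087) and Ccl3 (83647844 to 83649355) on the minus strand and Ccl4 (83662584 to 83664683) on the plus strand. Cxcl16 (70453983 to 70459984, minus strand) is 11.6 Mb before Ccl2, and Nr1d1 itself is 15.1 Mb beyond Ccl4. Cxcl2 (90903871 to 90905938, plus strand) and Cxcl10 (92346638 to 92348889, minus strand) are 1.44 Mb apart on chromosome 5.

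The 250 bases before the RefSeq start site (GRCm38.p6) were read for the 6 ligands with an entry, Ccl3, Ccl6, Ccl9, Ccl12, Cxcl2 and Cxcl10. Those of Ccl2, Ccl4, Ccl7 and Cxcl16 were not analysed here. Shown first are Ccl9 (chr11:83578637-83578886), Ccl6 (chr11:83593088-83593337) and Ccl3 (chr11:83649379-83649628), all on the minus strand, because their transcripts were higher in Cre+ cultures in every fit tried. Cxcl10 (chr5:92348890-92349139, minus strand) and Cxcl2 (chr5:90903649-90903898, plus strand) are shown beside them as ligands whose transcripts were low in both groups. Each is written 5′ to 3′ on the strand of its gene. Capitals mark letters found on either strand: the half-site AGGTCA that REV-ERB and ROR receptors recognise, the NF-kB consensus, the interferon response motif, the AP-1 site TGANTCA, the PU.1 and ETS core AGGAAGT, and the TATA box TATAAA.
Ccl9: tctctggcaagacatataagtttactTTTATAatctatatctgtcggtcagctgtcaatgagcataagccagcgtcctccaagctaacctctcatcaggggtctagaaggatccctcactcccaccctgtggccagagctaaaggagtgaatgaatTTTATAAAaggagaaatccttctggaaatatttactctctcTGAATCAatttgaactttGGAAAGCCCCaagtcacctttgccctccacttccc
Ccl6: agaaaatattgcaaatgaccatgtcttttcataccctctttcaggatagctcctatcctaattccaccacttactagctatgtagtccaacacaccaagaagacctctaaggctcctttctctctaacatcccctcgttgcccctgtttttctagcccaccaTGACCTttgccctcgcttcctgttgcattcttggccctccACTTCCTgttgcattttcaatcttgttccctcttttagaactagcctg
Ccl3: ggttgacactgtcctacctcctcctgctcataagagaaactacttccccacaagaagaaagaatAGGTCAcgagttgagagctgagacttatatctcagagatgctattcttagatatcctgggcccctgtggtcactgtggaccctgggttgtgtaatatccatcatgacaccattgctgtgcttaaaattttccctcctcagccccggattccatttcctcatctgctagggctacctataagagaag
Cxcl10: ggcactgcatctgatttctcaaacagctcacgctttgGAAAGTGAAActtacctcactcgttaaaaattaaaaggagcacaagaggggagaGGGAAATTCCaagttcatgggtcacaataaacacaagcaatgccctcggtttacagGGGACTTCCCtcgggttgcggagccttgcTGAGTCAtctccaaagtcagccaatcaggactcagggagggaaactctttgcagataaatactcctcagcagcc
Cxcl2: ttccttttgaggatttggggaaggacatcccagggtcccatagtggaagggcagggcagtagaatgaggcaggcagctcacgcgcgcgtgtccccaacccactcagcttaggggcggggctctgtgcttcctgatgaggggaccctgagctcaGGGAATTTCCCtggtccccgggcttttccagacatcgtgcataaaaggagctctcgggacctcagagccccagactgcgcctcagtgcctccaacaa

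The half-site AGGTCA was found in the windows of Ccl3, at -186 to -181 from the start site, and of Ccl6, at -88 to -83 on the opposite strand. Of all 32851 windows of this length, 14.0% hold it. No window of the other 4 ligands held these letters. The NF-kB consensus, present in 3.9% of windows, was found in Ccl9 at -35, in Cxcl2 at -97 and -96 as overlapping matches on the 2 strands, and in Cxcl10 at -159 and -103. The interferon motif, present in 2.98% of windows, was found in Cxcl10 at -213 and in none of the other 5. The AP-1 site reads the same on both strands, is present in 6.75% of windows, and was found in Ccl9 at -53 and Cxcl10 at -74. The PU.1 core, present in 7.69% of windows, was found in Ccl6 at -48 and Ccl12 at -228. TATAAA, present in 12.4% of windows, was found in Ccl9 from -224 and, as a pair of overlapping matches, from -94, and in Ccl12 at -31. These are matches of letters and not measured binding.

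The counts on genes came to between 87545868 and 110909129 per library. Microglia and macrophage markers summed to 8780 to 9190 CPM (counts scaled to a common library size, TMM-normalized) in Cre- and 8660 to 8940 CPM in Cre+ libraries. Cd68 was the most abundant of them, at 3880 to 4090 CPM. Aif1 and Tmem119 were low, at 2.37 to 3.25 and 1.85 to 3.55 CPM over the 6 libraries, and P2ry12 was below the expression filter. Summed markers of neurons were 2.68 to 3.68 against 1.94 to 2.16 CPM, and those of fibroblasts and mural cells 1.84 to 2.83 against 0.972 to 1.23 CPM. Summed astrocyte markers (44.3 to 48.2 against 42.6 to 48.6 CPM) overlapped between the groups and were mostly Aldoc. Oligodendrocyte lineage markers (83.7 to 92.8 against 80.9 to 85.7 CPM) also overlapped, with Cspg4 the most abundant. Below the filter were 6 of the 8 astrocyte and 5 of the 8 oligodendrocyte lineage markers. Of those astrocyte markers, Slc1a2, Gja1 and Aqp4 were lower in every Cre+ than in every Cre- culture, and Gfap, Slc1a3 and S100b overlapped. Aqp4 had 11, 6 and 3 counts in Cre- and 2, 2 and 2 in Cre+ libraries. Of all genes tested, 24.0% had groups without overlap, 11.7% as lower in Cre+. Summed markers of endothelial cells were 20.9 to 22.9 against 24.3 to 27.9 CPM, mostly Flt1, and those of T cells and neutrophils 8.9 to 11.1 against 6.95 to 7.87 CPM, mostly S100a8. No marker on these lists was at 0 in every library. Itgam (101 to 107 against 114 to 121 CPM) and Flt1 (19.4 to 20.5 against 23.1 to 26.5 CPM) were the markers with an adjusted p of at most 0.05 in edgeR's test. Both were higher in Cre+ cultures, as were 2.5% of all genes tested. Whether these differences have a part in the values below was not tested. Nr1d1, the targeted gene, was at 2.35, 1.20 and 1.64 CPM in Cre- and at 1.00, 0.945 and 1.08 CPM in Cre+ libraries. Every Cre+ culture was below every Cre- culture, and a log2 fold change of -0.77 (standard error, SE, 0.25) had an adjusted p of 0.094 (edgeR's quasi-likelihood test) and missed the 0.05 threshold. It passed without Cre- replicate 2 (-0.98, adjusted p = 0.041, edgeR). Counts per gene also include exons outside those that Cre removes, so they check the deletion only in part.

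The question of the comparison is which genes differ between control microglia and microglia in which Nr1d1 was targeted. Ccl3, Ccl4, Ccl6 and Ccl9 were higher in Cre+ cultures, by 1.48- to 1.88-fold, and Cxcl16 was lower, at 0.697 of the Cre- level. Ccl2 and Cxcl2 did not pass the threshold. Ccl7, Ccl12 and Cxcl10 were too low to be tested. Thus 5 of the 7 tested ligands passed, where 5.07% of all 11429 genes tested did, 2.5% as higher and 2.56% as lower. The median log2 fold change of the 7 was 0.75, and that of all genes tested was 0.00. The groups did not overlap for 6 of the 7, against 24.0% of all genes tested. The ligands were chosen with earlier results of these data known, so these shares describe the set and do not test it. A gene was tested when it exceeded 1 CPM in at least 4 libraries. Ccl2 met this only through the Cre+ cultures and Cre- replicate 3. In bulk RNA, more transcript per cell and more cells that make it cannot be told apart.

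**Figure D1:**
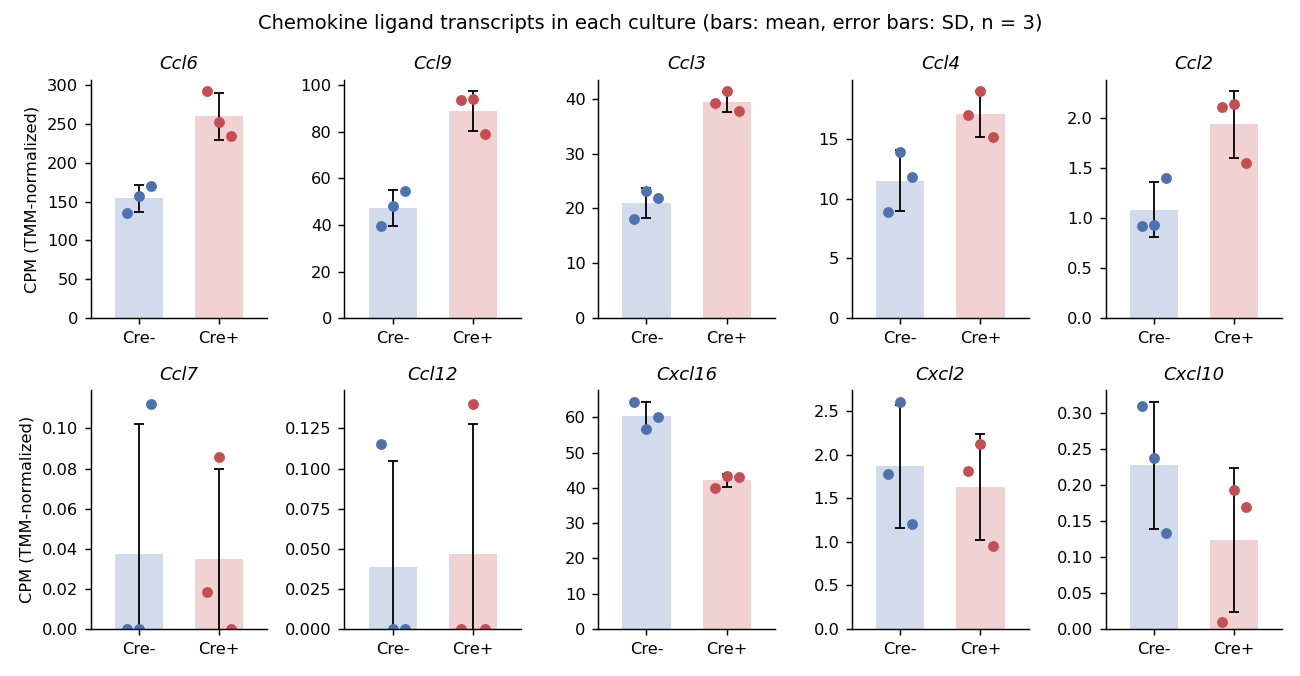
TMM-normalized level in CPM (y axis, from 0, a separate scale for each gene) of the 10 ligands in the Cre- and Cre+ cultures. Points are single cultures, bars the mean and error bars the SD (n = 3). Ccl6, Ccl9, Ccl3, Ccl4 and Ccl2 are higher in every Cre+ culture, Cxcl16 is lower in every one, and Ccl7 and Ccl12 stay at or below 0.14 CPM.

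Ccl6 was the most abundant of the ligands. Its level was 135, 157 and 170 CPM in Cre- replicates 1, 2 and 3 and 292, 252 and 234 CPM in Cre+ replicates 1, 2 and 3. The lowest Cre+ culture was above the highest Cre- culture. The log2 fold change was 0.75 (SE 0.08, 95% interval 0.58 to 0.93, adjusted p = 4.2e-05, edgeR). Ccl6 made up 50.2% to 52.9% of the summed level of the 10 ligands in Cre- and 55.5% to 60.1% in Cre+ libraries. That sum was 269, 303 and 321 CPM in Cre- and 486, 454 and 412 CPM in Cre+ libraries.

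Ccl9, the neighbour of Ccl6 and a ligand of the same receptor, was at 39.5, 48.0 and 54.7 CPM in Cre- cultures. In Cre+ cultures it was at 93.8, 93.9 and 79.0 CPM, again without overlap. The log2 fold change was 0.91 (SE 0.10, 95% interval 0.70 to 1.11, adjusted p = 3e-05, edgeR). A stretch of its longest transcript, 129 to 154 bases long, is at least 95% identical to transcripts of 9 other genes, and how reads placed in several genes were counted is not given in the sources used here.

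Ccl3, which encodes MIP-1α, was at 18.0, 23.2 and 21.9 CPM in Cre- and 39.2, 41.4 and 37.8 CPM in Cre+ cultures. It had the smallest p-value of the ligands, rank 25 among all genes tested, followed by Ccl9 at 35, Ccl6 at 39 and Cxcl16 at 45. The log2 fold change was 0.91 (SE 0.09, 95% interval 0.72 to 1.09, adjusted p = 1.4e-05, edgeR). Its neighbour Ccl4, which encodes MIP-1β, was at 8.85, 13.9 and 11.8 CPM in Cre- and 17.0, 19.0 and 15.2 CPM in Cre+ cultures. Here the groups were closer, with Cre- replicate 2 nearest to the Cre+ cultures. The log2 fold change was 0.56 (SE 0.14, 95% interval 0.27 to 0.86, adjusted p = 0.027, edgeR). The call of Ccl4 was lost without Cre- replicate 1 (log2 fold change 0.40, adjusted p = 0.077, edgeR), Cre- replicate 3 (0.58, 0.076), Cre+ replicate 1 (0.57, 0.066) or Cre+ replicate 2 (0.48, 0.12).

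Ccl2, which encodes the monocyte attractant MCP-1, was far lower. It was at 0.920, 0.931 and 1.4 CPM in Cre- and 2.11, 2.14 and 1.55 CPM in Cre+ cultures, from 80, 86 and 125 against 231, 199 and 156 counts. The groups did not overlap, with Cre- replicate 3 and Cre+ replicate 3 nearest to each other. Of the Cre- cultures only replicate 3 was above 1 CPM, so Ccl2 passed the filter mainly through the Cre+ cultures. Its log2 fold change of 0.83 (SE 0.24, 95% interval 0.33 to 1.34) did not pass the threshold (adjusted p = 0.056, edgeR). It passed without Cre- replicate 3 (log2 fold change 1.06, adjusted p = 0.038, edgeR) and in DESeq2 (adjusted p = 0.046). The neighbouring ligands Ccl7 and Ccl12 were barely detected. Ccl7 had 0, 0 and 10 counts in Cre- and 2, 8 and 0 in Cre+ libraries, and Ccl12 had 10, 0 and 0 against 0, 13 and 0. A library with 0 counts allows a level of up to 0.0274 to 0.0345 CPM, the level of 3 counts, and this covers counting error only. This bound takes counts as independent reads, which they may not be here, and it would then be higher. A difference in either gene was not detectable at this depth.

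Among the CXC ligands, Cxcl16 was at 64.4, 56.7 and 60.1 CPM in Cre- and 39.9, 43.3 and 43.1 CPM in Cre+ cultures. It was the only tested ligand of the 10 that passed as lower (log2 fold change -0.52, SE 0.06, 95% interval -0.66 to -0.38, adjusted p = 0.00017, edgeR). Of its 3021 exon bases, 552 are shared with Zmynd15 on the other strand, which was at 0.269 to 0.953 CPM. Whether the counting used strand is not given in the sources used here. Cxcl2 was at 1.78, 2.61 and 1.21 CPM in Cre- and 1.81, 2.13 and 0.952 CPM in Cre+ cultures, with overlapping groups. A log2 fold change was found of -0.20 (SE 0.30, adjusted p = 0.80, edgeR), and the 95% interval of -0.85 to 0.45 leaves room for a change in either direction. The fold change was positive without Cre- replicate 2 (0.12) or Cre+ replicate 3 (0.07). Cxcl2 shares 116 bases at 98.3% identity with Cxcl3, so that reads there are uncertain. Cxcl10, below the filter, had 27, 22 and 12 counts in Cre- and 1, 18 and 17 in Cre+ libraries. The groups overlapped, and 133 of its 2252 exon bases are shared with Art3 on the other strand.

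**Figure D2:**
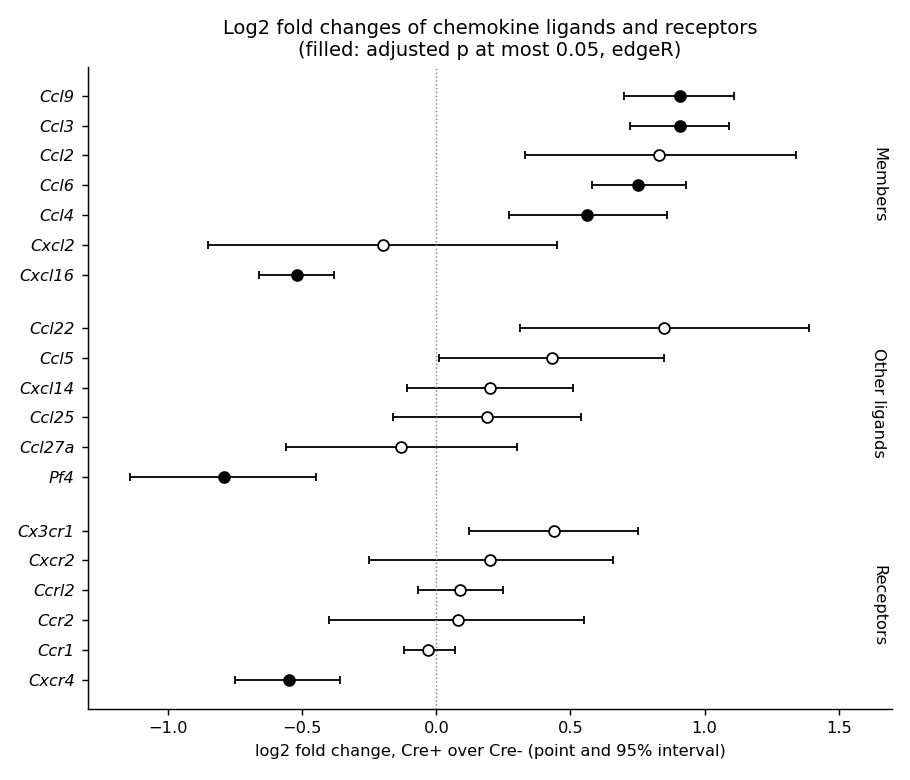
Log2 fold change of Cre+ over Cre- (x axis) with its 95% interval for the ligands of this set and the other tested ligands and receptors named in the text. Filled points have an adjusted p of at most 0.05 in edgeR's test. The 4 filled ligands on the right run from 0.56 to 0.91, and Cxcl16, Pf4 and Cxcr4 are the filled points on the left.

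To compare levels between genes, CPM was divided by the number of exon bases of each gene, which can exceed the length of any single transcript. The order below holds for this length, and transcript lengths were not used. Per kilobase, Ccl6 was highest in both groups, at 75.0 to 94.9 in Cre- and 130 to 163 CPM per kilobase in Cre+ cultures. Ccl3 came next, at 23.5 to 30.3 and 49.4 to 54.0 CPM per kilobase. In Cre- cultures Cxcl16 (18.8 to 21.3), Ccl4 (13.4 to 21.1) and Ccl9 (13.0 to 17.9 CPM per kilobase) followed, and each overlapped the next. In Cre+ cultures the order was Ccl9 (25.9 to 30.9), Ccl4 (23.1 to 28.7) and Cxcl16 (13.2 to 14.3 CPM per kilobase). Ccl9 and Ccl4 overlapped there, and Ccl4 and Cxcl16 did not. Ccl2 and Cxcl2 overlapped in Cre- cultures (0.808 to 1.23 and 0.584 to 1.26 CPM per kilobase) but not in Cre+ cultures (1.36 to 1.88 and 0.460 to 1.03 CPM per kilobase). Cxcl10, Ccl12 and Ccl7 were lowest in both groups and overlapped one another.

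**Figure D3:**
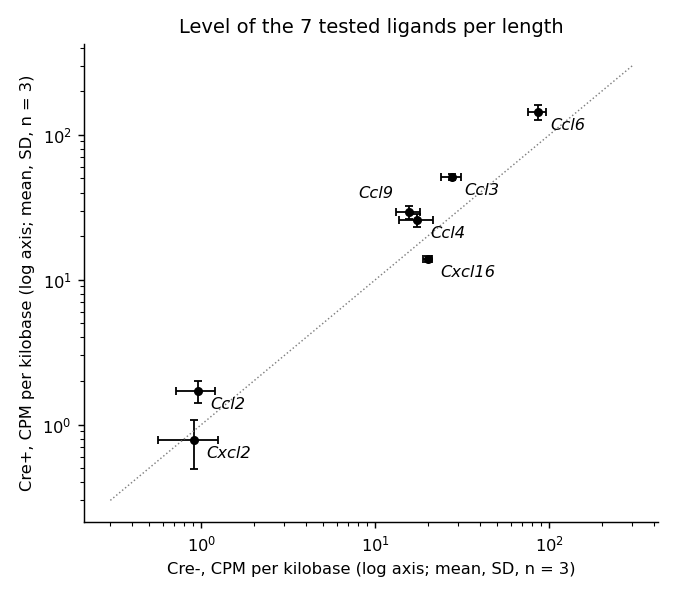
Mean level per kilobase of the 7 tested ligands in Cre+ (y axis) against Cre- cultures (x axis), in CPM per kilobase on log axes, with SD bars (n = 3). The dotted line marks equal levels. Ccl6, Ccl3, Ccl9, Ccl4 and Ccl2 lie above it and Cxcl16 and Cxcl2 below it.

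The neighbours on chromosome 11 were compared next. Between Ccl5 and Ccl4, the tested genes were Ccl5, Ccl9, Ccl6, Ccl3 and Ccl4, of which the last 4 are the ligands already given as higher (2.5% of all genes tested were). Ccl5, the T cell attractant RANTES, lies 42.4 kb before Ccl9. It was at 2.33, 1.95 and 1.81 CPM in Cre- and 2.90, 2.28 and 3.03 CPM in Cre+ cultures, with overlapping groups and a log2 fold change of 0.43 (SE 0.20, adjusted p = 0.24, edgeR). Taf15, 19.0 kb before Ccl5, had a log2 fold change of 0.12 (SE 0.23, adjusted p = 0.85, edgeR). On the other side, Wfdc17, which encodes a small secreted WAP-domain protein of macrophages, lies 39.3 kb after Ccl4. Wfdc17 fell from 684 ± 39.0 to 559 ± 24.4 CPM (SD, n = 3, log2 fold change -0.29, adjusted p = 0.0021, edgeR). Around the group of Ccl2, the nearest tested genes were far away. Tmem98 lay 1210 kb before Ccl2 (log2 fold change 0.05, adjusted p = 0.86, edgeR). Zfp830 lay 459 kb after Ccl1, a ligand below the filter that lies beyond Ccl12 (0.12, 0.50). The direction therefore differed between Ccl4 and the next tested gene, Wfdc17, and no test was made of this difference.

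**Figure D4:**
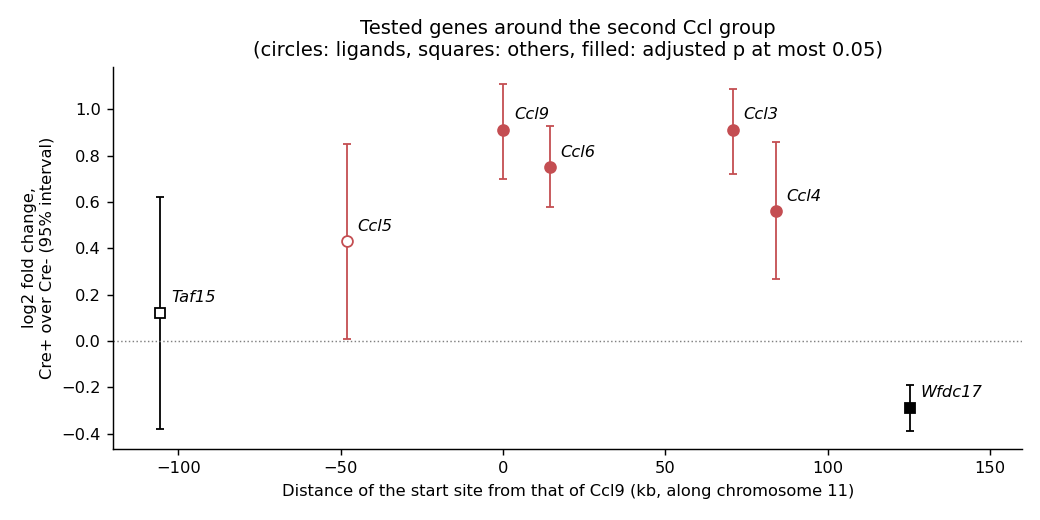
Log2 fold change of Cre+ over Cre- with its 95% interval (y axis) of the tested genes around Ccl9, by the distance of their start sites from that of Ccl9 in kb (x axis). Circles are ligands and squares other genes, and filled symbols have an adjusted p of at most 0.05. The 4 filled ligands lie at 0.56 to 0.91, and Wfdc17 is at -0.29.

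Within a library, the ratio of neighbouring ligands does not depend on library size. The log2 ratio of Ccl9 to Ccl6 was -1.71 ± 0.07 in Cre- and -1.54 ± 0.11 in Cre+ libraries (SD, n = 3), with overlapping groups. That of Ccl6 to Ccl3 was 2.87 ± 0.11 and 2.71 ± 0.16, also overlapping. The log2 ratio of Ccl3 to Ccl4 was 1.02, 0.74 and 0.89 in Cre- and 1.21, 1.13 and 1.31 in Cre+ libraries, without overlap. The difference of 0.33 had p = 0.1 in an exact 2-sided permutation test, the smallest that 3 libraries against 3 allow, and 0.333 after adjustment over the 5 pairs of neighbours. For Ccl9 to Ccl6 and for Ccl6 to Ccl3, the exact permutation p was 0.2 each, with differences of 0.16 and -0.16. For the pairs with Ccl7, whose counts were near 0, it was 0.7 (Ccl2 to Ccl7) and 1.0 (Ccl7 to Ccl12). Their ratios depended on the number added to each count. With 5 in place of 0.5, the difference was 0.89 in place of 0.34 for Ccl2 to Ccl7 and 0.01 in place of 0.55 for Ccl7 to Ccl12. The differences of the other pairs stayed at 0.16, -0.16 and 0.33. With 3 libraries against 3, no ratio could have reached 0.05, so these p-values do not say whether the ratios differ.

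**Figure D5:**
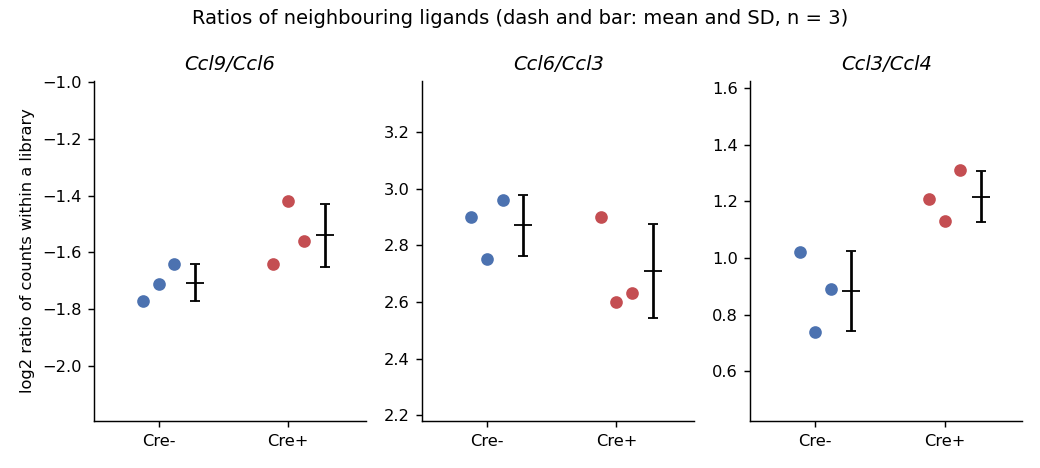
Log2 ratio of the counts of neighbouring ligands within each library (y axis, the same span in each panel) in Cre- and Cre+ cultures. Points are libraries, and the dash and bar are the mean and SD (n = 3). The groups overlap for Ccl9/Ccl6 and Ccl6/Ccl3 and are apart for Ccl3/Ccl4.

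Of the 28 other chemokine ligands listed, 6 passed the filter, and their median log2 fold change was 0.20. In edgeR's test 0 were higher and 1 was lower, against 2.5% and 2.56% of all genes tested. At an unadjusted p under 0.05, 2 were higher (Ccl22 and Ccl5), where 9.69% of all genes tested were higher and 9.46% lower at this level, and DESeq2 called 1 of them higher, Ccl22. Pf4, a CXC ligand known from platelets and also made by macrophages, was at 5.66, 4.91 and 5.63 CPM in Cre- and 2.97, 2.66 and 3.72 CPM in Cre+ cultures. Its groups did not overlap, and the log2 fold change was -0.79 (SE 0.16, adjusted p = 0.0096, edgeR). Ccl22, a ligand of CCR4, was at 1.03, 1.91 and 1.54 CPM in Cre- and 2.02, 2.60 and 3.46 CPM in Cre+ cultures, without overlap, at a log2 fold change of 0.85 (adjusted p = 0.070, edgeR). It passed without Cre- replicate 2, without Cre+ replicate 1 or without a filter on expression (0.92, adjusted p = 0.0026, edgeR), and over the 6 fits without 1 library its fold change ran from 0.62 to 1.06 with adjusted p of 0.047 to 0.28 in edgeR's test. Ccl25, Ccl27a and Cxcl14 had log2 fold changes of 0.19, -0.13 and 0.20, with adjusted p-values of 0.51 to 0.80 in edgeR's test.

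Of 19 chemokine receptors, 7 passed the filter, with a median log2 fold change of 0.08. In edgeR's test 0 were higher and 1 was lower, against 2.5% and 2.56% of all genes tested. DESeq2 and limma each called 0 higher and 1 lower. At an unadjusted p under 0.05, 1 was higher and 1 lower, against 9.69% and 9.46% of all genes tested. The receptor higher at this level was Cx3cr1, named here after its values were seen (log2 fold change 0.44, adjusted p = 0.11, edgeR). Ccr1, the receptor of Ccl3, Ccl6 and Ccl9, was the most abundant of them, at 202, 211 and 212 CPM in Cre- and 210, 199 and 205 CPM in Cre+ cultures. Its log2 fold change was -0.03, and the 95% interval of -0.12 to 0.07 bounds a change of either sign. Ccr2, the receptor of Ccl2, was at 1.10 to 1.61 CPM in Cre- and 1.32 to 1.72 CPM in Cre+ cultures, and Cxcr2, the receptor of Cxcl2, at 1.09 to 1.44 and 1.33 to 1.63 CPM. Ccrl2, a receptor that binds chemerin and does not signal, had a log2 fold change of 0.09 (-0.07 to 0.25). Cxcr3 and Cxcr6, the receptors of Cxcl10 and Cxcl16, were below the filter. The receptor that passed was Cxcr4, named here after its values were seen, at 21.7, 19.1 and 22.9 CPM in Cre- and 14.0, 15.3 and 14.1 CPM in Cre+ cultures (log2 fold change -0.55, adjusted p = 0.0018, edgeR).

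NF-kB and interferon signalling are the best known inducers of many of these ligands. Of 15 genes of NF-kB and its feedback, 14 were tested, with a median log2 fold change of -0.07. Of these, 9 of 14 were negative, against 5648 of the 11429 genes tested. In edgeR's test 0 were higher and 1 was lower, against 2.5% and 2.56% of all genes tested. DESeq2 and limma each called 0 higher and 1 lower. At an unadjusted p under 0.05, 1 was higher (Ikbkg) and 5 were lower (Nfkbia, Nfkbib, Nfkb2, Relb and Tnfaip3). The last 3 are named after their values were seen. Of all genes tested, 9.69% were higher and 9.46% lower at this level. Nfkbia, the inhibitor IκBα that NF-kB itself induces, was at 123, 130 and 127 CPM in Cre- and 114, 109 and 108 CPM in Cre+ cultures, without overlap. Its log2 fold change was -0.20 (SE 0.05, adjusted p = 0.030, edgeR), and the call was lost in 4 of the 6 fits without 1 library (Cre- replicate 2 or 3, or Cre+ replicate 2 or 3), with adjusted p up to 0.11. It was also lost with edgeR's filterByExpr (adjusted p = 0.13) and without a filter on expression (adjusted p = 0.43, edgeR), where Ikbkg was the NF-kB gene called, as higher (log2 fold change 0.25, adjusted p = 0.036, edgeR). Nfkbib and Ikbkg, the next by p-value, had log2 fold changes of -0.18 and 0.17 (adjusted p = 0.14 and 0.15, edgeR).

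Of 21 interferon path genes, 20 were tested, with a median log2 fold change of 0.12. Of these, 17 had a positive and 3 a negative fold change, against 5781 positive of the 11429 genes tested. In edgeR's test 2 were higher and 0 were lower, against 2.5% and 2.56% of all genes tested. DESeq2 called 2 higher and 1 lower, and limma 2 higher and 0 lower. At an unadjusted p under 0.05, 8 were higher and 3 were lower, against 9.69% and 9.46% of all genes tested. Oasl2, an interferon-stimulated gene, was at 9.87, 5.26 and 6.70 CPM in Cre- and 11.6, 15.6 and 13.8 CPM in Cre+ cultures (log2 fold change 0.91, adjusted p = 0.0080, edgeR). Gbp3, a guanylate-binding protein, was at 1.71, 1.84 and 1.90 against 3.03, 3.42 and 2.84 CPM (0.77, adjusted p = 0.023, edgeR), and its call was lost in 5 of the 6 fits without 1 library, all but that without Cre+ replicate 3, with adjusted p up to 0.096. Jak2, the third by p-value, had a log2 fold change of -0.52 (adjusted p = 0.080, edgeR). Among cytokines often measured with these ligands, Tnf (log2 fold change 0.12, adjusted p = 0.76, edgeR) and Il1b (-0.52, adjusted p = 0.16, edgeR) did not pass the threshold. Il6 was below the filter and not tested, at 0.253, 0.184 and 0.279 CPM in Cre- and 0.137, 0.0859 and 0.0694 CPM in Cre+ cultures. These came from 22, 17 and 25 against 15, 8 and 7 counts, lower in every Cre+ culture.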

How the data were processed

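RNA from 6 microglia cultures, 3 Cre- and 3 Cre+, was prepared from a low input of total RNA, amplified as cDNA and sequenced as read pairs. The counts, as deposited by the authors, are unnormalized whole numbers for each Ensembl gene of GRCm38, made with STAR and featureCounts. The submitters' processing notes give STAR 2.7.9a and featureCounts 2.0.3, whereas the methods of the study name earlier versions. The authors also deposited CPM and FPKM, the same counts divided by the library total and, for FPKM, by gene length. These were read only to check their unit. Among counts of 1 to 10, 63.4% to 71.1% were even, against 49.5% to 50.6% of counts over 100, so counts may not be independent reads.

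Genes were matched to GENCODE M21 (55227 of 55487). After removal of rRNA biotypes, a gene had to exceed 1 CPM in 4 or more libraries to enter the test of edgeR 4.0.16 (quasi-likelihood, TMM, no covariate, R 4.3.3), adjusted by Benjamini-Hochberg and called at 0.05. The study's own test, limma's voomWithQualityWeights, was run here as an alternative (limma 3.58.1), as was DESeq2 1.42.0. Levels in CPM use the library sizes of the tested genes times the TMM factor, the sizes of the fit. This scale was chosen after values on library totals had been seen, where 24.3% in place of 24.0% of genes did not overlap and 6 ligands did not in either case. SE was taken as the size of a log2 fold change over the root of its F statistic. Neighbour ratios are log2 of counts plus 0.5. Similar transcripts (at least 100 bases at 95% identity) were searched with blastn 2.17.0. The code was tested on simulated data. Other named genes followed a rule: other ligands and receptors of the 10 that passed the filter, up to 3 genes of the NF-kB and interferon lists by p-value, the neighbours on chromosome 11, and Il1b, Il6, Tnf and Nr1d1. The members and lists were chosen with earlier results of these data known. One receptor is not reported here. With 3 libraries a group, no library was tested as an outlier.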

Additional observations from a re-analysis of the deposited data

How the results depend on the processing

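Across all alternatives tried, Ccl3, Ccl6, Ccl9 and Cxcl16 kept their direction and stayed past the threshold, with log2 fold changes of 0.80 to 0.98, 0.66 to 0.83, 0.79 to 1.02 and -0.56 to -0.44. Between 4 and 6 ligands passed, 6 with DESeq2, without a filter or at an adjusted p of at most 0.1. Ccl2 passed with DESeq2 (0.83) and without a filter (0.91). Without 1 library, the log2 fold change ran from 0.72 to 1.06 for Ccl2, from 0.40 to 0.72 for Ccl4, from -0.44 to 0.12 for Cxcl2 and from -0.98 to -0.50 for Nr1d1. The number of genes past the threshold was 886 with DESeq2, 1528 without a filter, 935 at an adjusted p of at most 0.1, and 317 (without Cre+ replicate 3) to 448 without 1 library. It was 339 without Cre- replicate 3 and 376 without Cre+ replicate 2. Without a filter, the median of all genes moved by 0.078 on the log2 scale.

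Other ligands past the threshold numbered 2 with DESeq2, 3 without a filter, 2 with the replicate block and 1 to 2 without 1 library. The ligands called without a filter were Ccl22, Pf4 and Cxcl1, the last named here after its values were seen. Cxcl1 was lower (log2 fold change -2.87, adjusted p = 0.013, edgeR), from 14, 53 and 10 counts in Cre- and 7, 4 and 0 in Cre+ libraries. With filterByExpr it did not pass (adjusted p = 0.081, edgeR). Receptors numbered 2 without a filter and 1 to 2 without 1 library. NF-kB genes numbered 0 with filterByExpr, 0 with the replicate block and 0 to 1 without 1 library. Interferon genes numbered 8 without a filter and 1 to 4 without 1 library. The difference in log2 ratio without 1 library ran from -0.92 to 1.30 for Ccl2/Ccl7 and from -1.64 to 2.75 for Ccl7/Ccl12, both of which changed sign, while Ccl9/Ccl6 (0.10 to 0.21), Ccl6/Ccl3 (-0.26 to -0.11) and Ccl3/Ccl4 (0.26 to 0.40) did not. The cause of these changes was not tested. For the lists and Nr1d1, the fits other than those without a filter or without 1 library were added after seeing the data, and for Nr1d1 also the fit without a filter.

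No shared effect of the replicate numbers of the labels was seen. The deviations of same-numbered cultures correlated at 0.0144, -0.0205 and -0.0445, and those of differently numbered cultures at -0.0343 to 0.0555. Such values cannot tell whether same-numbered cultures were prepared together. With the replicate block, 430 genes and the same 5 ligands passed, Ccl22 was gained (0.86, adjusted p = 0.044, edgeR) and Nfkbia was lost (adjusted p = 0.074, edgeR).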
